A study of Homo sapiens with 10 samples.

Results

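The enzymes of purine nucleotide synthesis were followed in K562 cells exposed to bromodomain inhibitors of CREBBP/EP300. The genes were taken by symbol: PPAT, GART, PFAS, PAICS, ADSL and ATIC, which carry the pathway to inosine monophosphate (IMP), and ADSS, IMPDH1, IMPDH2 and GMPS, which turn IMP into AMP and GMP. All 10 symbols were found among the 23284 genes of the expression table, and all 10 passed the filter on low values that left 12788 genes for testing. K562 is an established line from a chronic myelogenous leukemia with erythroid features. The cells received DMSO (the vehicle), 2 µM CBP30, 5 µM CBP30, 2 µM I-CBP112 or 5 µM I-CBP112 for 48 h, with 2 biological replicates in each of the 5 conditions. Poly(A) RNA was sequenced, and levels are given as FPKM, which is fragments per kilobase of transcript length after scaling to the mapped fragments of the library, so that levels of different genes can be set side by side. Both compounds occupy the acetyl-lysine pocket of the CREBBP and EP300 bromodomains. A single cell line was used, and the labels give no clone.

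Purine nucleotides are assembled stepwise on a ribose phosphate. PPAT transfers the first nitrogen onto phosphoribosyl pyrophosphate (PRPP) and commits it to the pathway, GART, PFAS, PAICS, ADSL and ATIC build the rings up to IMP, and the pathway then divides into an AMP branch and a GMP branch. Dividing leukemia cells draw on this route for nucleic acids.

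PPAT and PAICS are neighbours that are transcribed away from each other. In GRCh37 (hg19), the build of the deposited data, PPAT spans chr4:57259528-57301781 on the minus strand and PAICS chr4:57301907-57330744 on the plus strand, with 125 bases between them. The other enzymes lie on separate chromosomes or far apart: GART at chr21:34876238-34915797 (minus), PFAS at chr17:8150936-8173809 (plus), ADSL at chr22:40742465-40786467 (plus), ATIC at chr2:216176679-216214496 (plus) and ADSS, listed as ADSS2 in GENCODE, at chr1:244571796-244615211 (minus). IMPDH1 is at chr7:128032331-128050040 (minus), IMPDH2 at chr3:49061758-49066880 (minus) and GMPS at chr3:155588439-155661809 (plus). Exons of ADSL, ADSS and IMPDH2 overlap exons of another annotated gene on the same strand, so reads there could be counted for either gene. Exons of PPAT and IMPDH2 overlap a gene on the opposite strand, and whether the counting used strand is not given in the sources used here.

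The enzymes moved in the same direction with 5 µM CBP30, as described below, and their promoters were searched for 3 motifs on both strands of RefSeq windows reaching from 250 bases before to 50 bases after a gene start (GRCh38.p14). The first motif was the E-box CACGTG, which basic helix-loop-helix factors bind. The second was the CCAAT box. The third was CCGGAAG, a core bound by ETS factors. An entry was matched for 8 of the 10 enzymes, with ADSL and IMPDH2 not matched. These 8 enzymes had 13 windows. The counts below are of enzymes with a match in any window, whereas the shares are of single windows, so they are unlike measures. CACGTG occurred in the windows of 3 enzymes, PPAT, PAICS and ATIC, and in 7.26% of all 35116 windows. CCAAT occurred for GART alone among the 8, against 34.6% of all windows, and CCGGAAG likewise for GART alone in another of its 3 entries, against 10.3%. A window of PAICS at chr4:56435502-56435801 shares 236 bases with the PPAT window, so the CACGTG of both genes is 1 site, which starts 182 bases before the PPAT start and 41 bases after that PAICS start. The ATIC window holds CACGTG 46 bases before and 30 bases after the start. The GART window holds CCAAT at 123 and 53 bases before the start, and on the other strand, as ATTGG, at 99 bases before it. A match is a description of the letters and does not show that a factor is bound. The 3 windows below, written 5′ to 3′ in the direction of transcription, are those of the committing enzyme, of the enzyme with a pair of E-boxes, and of the enzyme whose difference with 5 µM CBP30 was the largest on the log2(FPKM + 1) scale, and capitals mark the motif matches.
PPAT promoter, chr4:56435566-56435865, minus strand: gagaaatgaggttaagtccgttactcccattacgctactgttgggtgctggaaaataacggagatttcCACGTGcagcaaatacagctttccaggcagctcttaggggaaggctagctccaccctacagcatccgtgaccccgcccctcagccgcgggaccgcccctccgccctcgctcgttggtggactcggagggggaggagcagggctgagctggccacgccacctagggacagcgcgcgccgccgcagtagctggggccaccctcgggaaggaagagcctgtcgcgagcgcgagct
ATIC promoter, chr2:215311809-215312108, plus strand: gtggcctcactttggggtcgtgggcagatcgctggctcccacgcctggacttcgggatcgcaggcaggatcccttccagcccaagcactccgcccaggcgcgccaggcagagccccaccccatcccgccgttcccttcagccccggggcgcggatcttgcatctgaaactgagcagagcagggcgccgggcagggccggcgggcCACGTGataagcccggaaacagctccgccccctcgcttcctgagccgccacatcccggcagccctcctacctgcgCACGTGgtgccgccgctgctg
GART promoter, chr21:33542843-33543142, minus strand: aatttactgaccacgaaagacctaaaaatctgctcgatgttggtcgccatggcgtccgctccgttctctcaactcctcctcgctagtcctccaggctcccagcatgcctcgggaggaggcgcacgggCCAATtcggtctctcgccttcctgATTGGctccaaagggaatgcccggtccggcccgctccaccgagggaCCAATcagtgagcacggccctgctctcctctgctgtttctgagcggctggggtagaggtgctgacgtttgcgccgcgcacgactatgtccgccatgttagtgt

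Samples of 1 condition correlated with Pearson's r between 0.962 and 0.976 over the tested genes on the log2(FPKM + 1) scale. Read counts are not given with FPKM values. Relative depth was estimated from 601 genes with long transcripts and nonzero values in only a few libraries. In each library the median of their nonzero FPKM times length was taken as 1 read. The relative depth of the libraries then ran from 0.743 to 1.10. One library stood apart: in CBP30 2 µM replicate 1 the difference from DMSO ran against transcript length (Spearman rho −0.507 across 11760 genes), with a median of 0.32 among the genes with the shortest 20% of transcripts and −0.30 among the longest 20% on the log2 scale. In CBP30 2 µM replicate 2 rho was −0.0485, and in the 5 µM CBP30 libraries it was 0.210 and 0.209. With I-CBP112 rho was 0.182 in replicate 1 and −0.0519 in replicate 2 at 2 µM, and −0.0648 and −0.0296 at 5 µM. All 8 erythroid markers checked were detected in every sample, while their summed level was 1680 and 1731 FPKM in DMSO against 514 and 540 with 5 µM CBP30, and 934 and 1021 with 5 µM I-CBP112. Of 4 lymphoid markers MS4A1 was at 0 in all samples, and the summed level of the list was 2.06 FPKM in each DMSO sample and 4.22 and 4.31 with 5 µM CBP30. The part of these shifts in the changes of the enzymes was not tested. In bulk RNA, fewer cells of a type and less RNA per cell cannot be told apart.

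In DMSO-treated cells every enzyme was well expressed, over a range from 24.1 to 230 FPKM. PAICS was highest, with 225 and 236 FPKM, followed by IMPDH2 with 196 and 201 FPKM. ATIC (mean 164 FPKM) and GART (162 FPKM) followed and their samples overlapped, so that these neighbours in the order did not differ beyond their spread. ADSL had a mean of 103 FPKM, ADSS 71.1, GMPS 68.4, PPAT 41.3, IMPDH1 26.9 and PFAS 24.1 FPKM, and none of these neighbours overlapped. Thus PPAT, which commits PRPP to the pathway, ranked 8 among the 10 enzymes. With 5 µM CBP30 the order of the means was the same at lower levels, from 148 FPKM for PAICS to 14.8 FPKM for PFAS, and the samples of IMPDH1 and PFAS overlapped.

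To ask whether CBP30 changed the mRNA of these enzymes, 5 µM CBP30 was compared with DMSO first. All 10 enzymes fell (limma, Benjamini-Hochberg adjusted p under 0.05 over all tested genes), where 25.4% of the 12788 genes were called lower and 21.2% higher. The median difference was −0.64 on the log2(FPKM + 1) scale for the enzymes and −0.01 for all genes tested. Both samples lay below both DMSO samples for each enzyme, as they did for 42.6% of all genes. The comparisons of the 4 treatments with DMSO share the same DMSO samples.

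Along the route to IMP the smallest fall was that of PPAT, the amidotransferase of the first step. PPAT was at 40.2 and 42.4 FPKM in DMSO and at 32.7 and 34.0 FPKM with 5 µM CBP30, and the groups did not overlap. The log2 difference was −0.30 (SE 0.0709, adjusted p = 0.0116), a level of 80.8% of DMSO. It missed the threshold after quantile normalization, at −0.21 (adjusted p = 0.0812), and when DMSO replicate 2 (adjusted p = 0.0737) or CBP30 5 µM replicate 1 (adjusted p = 0.0723) was left out.

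GART, a trifunctional enzyme that also adds a formyl group from folate, had the largest fall of the 10 on the log2(FPKM + 1) scale. GART was at 159 and 165 FPKM in DMSO and at 90.3 and 91.2 FPKM with 5 µM CBP30, that is 56.0% of DMSO (log2 difference −0.83, SE 0.0535, adjusted p = 4.18e-05). The distance between the conditions was far larger than that between replicates. PFAS, which adds the next nitrogen, was at 24.1 and 24.0 FPKM in DMSO and at 14.8 FPKM in both treated samples (−0.66, SE 0.0735, adjusted p = 0.000409). PAICS, a bifunctional carboxylase and ligase, went from 225 and 236 FPKM to 149 and 147 FPKM (−0.64, SE 0.0514, adjusted p = 0.000104). The ratio of PAICS to its neighbour PPAT was 5.60 and 5.57 in DMSO and 4.55 and 4.32 with 5 µM CBP30, without overlap, a difference that was not tested.

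ADSL splits off fumarate in the route to IMP and again in the AMP branch. ADSL was at 104 and 103 FPKM in DMSO and at 78.0 and 76.6 FPKM with 5 µM CBP30, a fall to 74.7% (−0.42, SE 0.0907, adjusted p = 0.00820) that missed the threshold without CBP30 5 µM replicate 2 (adjusted p = 0.0507). ATIC, which adds the last formyl group and closes the ring, was at 162 and 166 FPKM in DMSO and at 103 and 105 FPKM with 5 µM CBP30 (−0.65, SE 0.0561, adjusted p = 0.000139). Neither gene had overlapping groups.

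In the branches after IMP the IMPDH isozymes fell more deeply than GMPS and ADSS on the log2 scale, a difference between genes that was not tested. IMPDH1 and IMPDH2 are the isozymes of the oxidation that commits IMP to GMP. IMPDH1 was at 26.8 and 27.1 FPKM in DMSO and at 15.2 and 14.8 FPKM with 5 µM CBP30, or 55.8% of DMSO (−0.80, SE 0.0583, adjusted p = 6.66e-05). IMPDH2, the more abundant isozyme here, was at 196 and 201 FPKM in DMSO and at 114 and 115 FPKM with 5 µM CBP30, or 57.7% (−0.79, SE 0.0969, adjusted p = 0.000648). The isozymes therefore fell to a similar share of DMSO, and IMPDH2 exceeded IMPDH1 by 7.33 and 7.45 times in DMSO and by 7.51 and 7.78 times with 5 µM CBP30. GMPS, which aminates the product to GMP, was at 67.7 and 69.2 FPKM in DMSO and at 51.6 and 51.8 FPKM with 5 µM CBP30 (−0.40, SE 0.0402, adjusted p = 0.000275). On the AMP side ADSS was at 70.4 and 71.8 FPKM in DMSO and at 55.7 and 53.7 FPKM with 5 µM CBP30 (−0.37, SE 0.0454, adjusted p = 0.000610). GMPS and ADSS were at 75.6% and 76.9% of their DMSO level, and neither overlapped DMSO. ADSSL1, the other adenylosuccinate synthase, known from muscle, was low, with a mean of 4.14 FPKM in DMSO and 3.04 FPKM with 5 µM CBP30 (−0.35, SE 0.0843, adjusted p = 0.0126).

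The lower concentration of CBP30 was then examined. With 2 µM CBP30, 8 of the 10 enzymes fell, where 16.3% of all genes were called lower and 15.9% higher, and ADSL and IMPDH2 did not pass the test. For 9 of them both samples lay below both DMSO samples, as for 30.5% of all genes. The median difference was −0.30 for the enzymes and 0.01 for all genes. GART was at 102 and 111 FPKM and fell by 0.60 on the log2 scale (SE 0.0535, adjusted p = 0.000420). PFAS was at 14.3 and 16.7 FPKM and fell by 0.61 (SE 0.0735, adjusted p = 0.00145). For both, all samples lay below those of DMSO. IMPDH1, at 20.8 and 18.6 FPKM, fell by 0.43, and PAICS, at 173 and 181 FPKM, fell by 0.38. PPAT was at 31.1 and 36.0 FPKM (−0.29, adjusted p = 0.0198) and ADSS at 57.0 and 58.2 FPKM (−0.30, adjusted p = 0.00341), both apart from DMSO. The falls of ATIC, at 144 and 136 FPKM (−0.23, adjusted p = 0.0208), and GMPS, at 60.7 and 60.2 FPKM (−0.18, adjusted p = 0.0163), were the smallest of those called.

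For ADSL and IMPDH2 the replicates of 2 µM CBP30 did not go together. ADSL was at 116 FPKM in replicate 1 and at 94.3 FPKM in replicate 2, that is above and below both DMSO samples (difference 0.02, SE 0.0907, adjusted p = 0.918). IMPDH2 was at 196 FPKM in replicate 1, the level of DMSO, and at 163 FPKM in replicate 2 (−0.15, SE 0.0969, adjusted p = 0.258). Replicate 1 is the library whose differences ran against transcript length, with short transcripts up and long ones down. The canonical transcript of IMPDH2 has 1651 nt. That of ADSL is longer, at 4359 nt, yet ADSL was up in this library, at 0.16. The part of length in either value was not tested. Without replicate 1 the differences of all 10 enzymes from DMSO were negative, with ADSL at −0.13 and IMPDH2 at −0.29. Without replicate 2 instead, ADSL was at 0.16 and IMPDH2 at −0.02. With the trend on length removed IMPDH2 fell by 0.26 (adjusted p = 0.00274), whereas GMPS, whose canonical transcript of 8631 nt is the longest of the 10, was at 0.01 (adjusted p = 0.942). Before that removal the replicates of GMPS were alike, at −0.17 in replicate 1 and −0.18 in replicate 2. A fit of the DMSO and 2 µM CBP30 samples alone called none of the 10 enzymes, and 1.28% of all genes lower, and without either DMSO replicate the count was 5 (7.91% and 7.65% of all genes).

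To see whether the concentrations of CBP30 differed, they were compared with each other. With 5 µM, 7 enzymes were lower than with 2 µM, where 21.3% of all genes were called lower, and the medians were −0.24 for the enzymes and −0.03 for all genes. The step passed the test for IMPDH2 (−0.63, SE 0.0969, adjusted p = 0.00536), which went from a mean of 179 to 115 FPKM, for ADSL (−0.43, adjusted p = 0.0133) and for ATIC (−0.42, adjusted p = 0.00338). Without CBP30 2 µM replicate 1, the library that stood apart, the ADSL step was −0.28 and that of ATIC −0.38. IMPDH1, PAICS, GART and GMPS fell further by 0.37, 0.25, 0.23 and 0.22. The difference was −0.005 for PPAT (95% interval −0.17 to 0.16), −0.06 for PFAS (−0.23 to 0.12) and −0.07 for ADSS (−0.18 to 0.03). For PPAT and PFAS the samples of the concentrations overlapped. The count was 3 without CBP30 5 µM replicate 1 (5.85% of all genes) and 2 without CBP30 5 µM replicate 2 (4.90%), and a fit of these groups alone called none of the 10 enzymes and 0.0313% of all genes lower.

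I-CBP112 had smaller differences. With 5 µM I-CBP112 each enzyme had both samples below both DMSO samples, as did 33.7% of all genes, and 3 enzymes fell, where 3.28% of all genes were called lower. These were GART, at 135 and 134 FPKM (−0.27, SE 0.0535, adjusted p = 0.0290), ADSS, at 60.5 and 61.0 FPKM (−0.22, SE 0.0454, adjusted p = 0.0316), and IMPDH1, at 22.7 and 22.1 FPKM (−0.25, SE 0.0583, adjusted p = 0.0475). The median of the 10 enzymes was −0.17, and that of all genes −0.004. PFAS at 20.5 and 19.3 FPKM (−0.26, adjusted p = 0.0836) and PAICS at 199 and 200.2 FPKM (−0.21, adjusted p = 0.0600) were below DMSO but missed the threshold, as did ATIC at 149 and 151 FPKM (−0.13), PPAT at 37.4 and 37.3 FPKM (−0.14) and GMPS at 63.6 and 64.5 FPKM (−0.09). ADSL at 102 and 98.0 FPKM (−0.05) and IMPDH2 at 191 and 186 FPKM (−0.08) were nearest to DMSO. The count of 3 was 7 without either CBP30 2 µM replicate, where 12.5% and 12.4% of all genes were called lower. It was 0 without any other single sample (0.610% to 1.92% of all genes) and 1 with the replicate block (2.26%).

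With 2 µM I-CBP112 no enzyme passed the threshold in limma, and 4 had an unadjusted p under 0.05, where 0.735% of all genes were called lower. The count was 4 without either CBP30 2 µM replicate, where 4.89% and 4.87% of all genes were called lower. Both samples were below both DMSO samples for 9 of the 10 enzymes and for 28.3% of all genes, and the median was −0.12 for the enzymes. GART was at 140 and 142 FPKM (−0.20, adjusted p = 0.155), ADSS at 60.7 and 63.3 FPKM (−0.20, adjusted p = 0.106), PAICS at 202 and 210 FPKM (−0.16, adjusted p = 0.214) and IMPDH1 at 23.9 and 24.4 FPKM (−0.15, adjusted p = 0.310). The exception was IMPDH2, with 178 FPKM in replicate 1 and 203 FPKM in replicate 2, which overlapped DMSO. In that replicate 1 the difference from DMSO rose with transcript length (rho 0.182), and the part of this in IMPDH2 was not tested. The remaining enzymes lay between −0.12 and −0.05. Between 5 and 2 µM I-CBP112 none of the 10 enzymes was called, and none had an unadjusted p under 0.05, where 0.00782% of all genes were called lower. The intervals of that difference left room for changes in either direction, for example −0.24 to 0.22 for IMPDH2 and −0.20 to 0.05 for GART.

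The compounds were compared directly at matched concentrations and the same time, in 20 pairs of values (10 enzymes at 5 µM and 10 at 2 µM), with p-values adjusted over all genes of each comparison. No DMSO sample enters these differences, although the DMSO samples share in the estimate of the spread. At 5 µM, 9 enzymes were lower with CBP30 than with I-CBP112, where 17.9% of all genes were called lower, and the median was −0.42 for the enzymes and −0.01 for all genes. IMPDH2 differed most, with 114 and 115 FPKM against 191 and 186 FPKM (−0.71, 95% interval −0.94 to −0.48, adjusted p = 0.00229). GART (−0.56, adjusted p = 0.000547), IMPDH1 (−0.55, adjusted p = 0.000851) and ATIC (−0.52, adjusted p = 0.000918) followed, and CBP30 samples lay below I-CBP112 samples in each. PAICS, PFAS, ADSL and GMPS were lower by −0.43, −0.40, −0.37 and −0.30. ADSS had the smallest difference that was called (−0.15, adjusted p = 0.0434), and this call was lost with a replicate block (adjusted p = 0.0628), with the length trend removed (adjusted p = 0.251), with quantile normalization (−0.05, adjusted p = 0.566), without the variance trend (adjusted p = 0.0618) and without any single sample other than those of 2 µM CBP30 (adjusted p from 0.0592 to 0.218). PPAT did not pass, with 32.7 and 34.0 FPKM against 37.4 and 37.3 FPKM (−0.16, 95% interval −0.33 to 0.01, adjusted p = 0.130), although its samples did not overlap and it was called without either CBP30 2 µM replicate (adjusted p = 0.0113 and 0.0115), in a fit of these groups alone (adjusted p = 0.0185) and with the length trend removed (adjusted p = 0.0458). The calls also lost without a single sample were ADSL, without any of the 4 samples compared (adjusted p from 0.0766 to 0.115) and also with no filter on low values (adjusted p = 0.0542), and PFAS, without I-CBP112 5 µM replicate 1 (adjusted p = 0.0560).

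At 2 µM, 4 enzymes were lower with CBP30 than with I-CBP112, where 8.45% of all genes were called lower, and the medians were −0.16 and 0.01. These were PFAS (−0.49, 95% interval −0.66 to −0.31, adjusted p = 0.00864), GART (−0.40, −0.53 to −0.28, adjusted p = 0.00583), IMPDH1 (−0.28, −0.42 to −0.15, adjusted p = 0.0231) and PAICS (−0.22, −0.34 to −0.10, adjusted p = 0.0333). PAICS lost its call with the length trend removed (−0.08, adjusted p = 0.289). For the other enzymes the interval was −0.35 to −0.01 for PPAT, −0.11 to 0.32 for ADSL, −0.27 to −0.01 for ATIC, −0.21 to 0.003 for ADSS, −0.32 to 0.14 for IMPDH2 and −0.22 to −0.03 for GMPS, none of them called. The samples of ADSL and IMPDH2 overlapped between the compounds. The count was 6 without CBP30 2 µM replicate 1 (10.5% of all genes) and 7 without replicate 2 (25.8%). It was 1 without either I-CBP112 2 µM replicate (1.86% and 1.99%) and 2 without any other single sample (4.53% to 4.70%), and a fit of these groups alone called none of the 10 enzymes and 0.0704% of all genes lower.

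Whether the step from 2 to 5 µM differed between the compounds was tested as an interaction, a test added after the values had been seen. It was called for ATIC only, with a difference of steps of −0.38 (SE 0.0793, adjusted p = 0.0461), where 3.32% of all genes were called lower. ATIC had 144 and 136 FPKM with 2 µM and 103 and 105 FPKM with 5 µM CBP30, against 149 and 160 FPKM with 2 µM and 149 and 151 FPKM with 5 µM I-CBP112. The call did not pass with a replicate block (adjusted p = 0.0732) or with the length trend removed (−0.17, adjusted p = 0.107). IMPDH2 (−0.62, adjusted p = 0.0511) and ADSL (−0.48, adjusted p = 0.0700) had larger differences with larger errors. Without CBP30 2 µM replicate 1, 7 of the 10 enzymes were called, where 17.8% of all genes were called in either direction, and with the trend on length removed 4 (13% of all genes), against 4.94% in the fit with all samples.

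To place PPAT, the genes whose levels went most like it over the 10 samples were ranked among 8996 other genes averaging 5 FPKM or more, by the root mean square difference of log2(FPKM + 1) after centring. Among the 5 nearest were CCDC6 (0.0244), ZNF788 (0.0245), POFUT1 (0.0259) and USP15 (0.0295). USP15, for instance, had means of 57.3 FPKM in DMSO and 46.0 FPKM with 5 µM CBP30. The nearest of the other enzymes was ADSS, at rank 143 (0.0608), then GMPS at 610 and PAICS, the neighbour on the chromosome, at 1584. GART, IMPDH1 and IMPDH2, which fell more deeply with 5 µM CBP30, stood at 4101, 4385 and 6313.

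The genes around the pathway were described by lists, whose counts with 5 µM CBP30 are to be read against the 25.4% of all genes called lower and the 21.2% called higher. PRPP, the substrate of PPAT, is made by PRPS1 and PRPS2. Of 4 supply genes tested 1 fell with 5 µM CBP30, a share near that of all genes. This was PRPS2, with 21.2 and 21.4 FPKM in DMSO and 16.4 and 17.0 FPKM with 5 µM CBP30 (−0.33, adjusted p = 0.00275). PRPS1, the more abundant, was at 84.5 and 84.2 FPKM in DMSO and at 91.8 and 92.4 FPKM with 5 µM CBP30 (0.13, adjusted p = 0.174), a difference that passed the test once the length trend was removed (0.23, adjusted p = 0.000804).

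Salvage recycles free bases and nucleosides. Of 6 salvage genes 1 fell and 1 rose with 5 µM CBP30, shares below those of all genes, and the median was −0.04. Without either CBP30 2 µM replicate 3 salvage genes were called lower, where 33.4% and 33.5% of all genes were. PNP, which releases bases from nucleosides, was at 62.7 and 64.6 FPKM in DMSO and at 46.5 and 48.3 FPKM with 5 µM CBP30 (−0.42, adjusted p = 0.00347). DCK, which phosphorylates deoxynucleosides, rose to 24.0 and 24.6 FPKM, 128% of its DMSO mean (0.34, adjusted p = 0.00300). HPRT1, which salvages hypoxanthine and guanine, was at 75.0 and 78.8 FPKM in DMSO and at 70.7 FPKM in both 5 µM CBP30 samples (−0.12, adjusted p = 0.240). HPRT1 did not pass the test, although its groups did not overlap. With the length trend removed HPRT1 was at 0.03 (adjusted p = 0.623), and 3 salvage genes were called higher, where 29.3% of all genes were.

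Of 7 interconversion and breakdown genes tested 4 fell and 1 rose with 5 µM CBP30, and 2 fell without DMSO replicate 1 (17.9% of all genes) or CBP30 5 µM replicate 2 (17.5%). GMPR, which returns GMP to IMP, went from 51.7 and 49.3 to 28.4 and 30.6 FPKM (−0.76, adjusted p = 0.000638), and AMPD2, which returns AMP to IMP, from 17.5 and 15.9 to 11.6 and 11.3 FPKM (−0.51, adjusted p = 0.00107). Both groups stood apart from DMSO. NT5C2, a nucleotidase that acts on IMP and GMP, rose from 19.2 and 21.9 to 28.8 and 30.3 FPKM (0.51, adjusted p = 0.00359).

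Folate carries the one-carbon units that GART and ATIC add. In the list of folate one-carbon supply 7 of 10 genes fell and none rose with 5 µM CBP30 in limma (1 had an unadjusted p under 0.05 in the upward direction), and the median was −0.43. MTHFD1L, the mitochondrial enzyme that releases formate, had a mean of 109 FPKM in DMSO and 43.8 FPKM with 5 µM CBP30, and its fall of 1.29 on the log2 scale (SE 0.0681, adjusted p = 1.90e-05) exceeded that of each of the 10 enzymes. ALDH1L2, a mitochondrial formyl-folate dehydrogenase, fell from a mean of 15.4 to 5.98 FPKM (−1.23, SE 0.203, adjusted p = 0.00246). With the length trend removed 3 genes of this list were called higher, a share near the 29.3% of all genes.

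Of 6 purine nucleotide kinases, which phosphorylate the products further, 3 fell with 5 µM CBP30. The number of kinases called lower went up or down with the sample left out, and so did the share of all genes called lower. AK4 went from a mean of 17.0 to 10.2 FPKM (−0.68, adjusted p = 0.000170) and NME2 from 737 to 522 FPKM (−0.50, adjusted p = 0.0243). NME2 shares sequence with NME1 and with a readthrough transcript that has its own row in the table, so its level is uncertain. In pyrimidine synthesis, the parallel pathway, 4 of 5 genes fell: DHODH went from a mean of 7.55 to 3.81 FPKM (−0.83, adjusted p = 9.44e-05) and CAD, which catalyses the first steps, from 27.0 to 16.2 FPKM (−0.70, adjusted p = 0.00126).

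With 5 µM I-CBP112 the genes named above from these lists did not pass the test. MTHFD1L was at −0.22 (adjusted p = 0.111), DHODH at −0.27 (adjusted p = 0.0555) and CAD at −0.35 (adjusted p = 0.0847). With 2 µM I-CBP112 none was called in limma, with up to 1 gene per list at an unadjusted p under 0.05. With 2 µM CBP30, where 16.3% of all genes were called lower and 15.9% higher, 3 folate genes fell and 1 rose, 3 pyrimidine genes, 2 interconversion genes and 2 kinases fell, 1 salvage gene fell and 1 rose, and no supply gene was called. In each list the number called lower, the number called higher or both moved with the sample left out. The shares of all genes called lower and higher moved as well.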

How the data were processed

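Total RNA of K562 cells was enriched for poly(A), and stranded libraries were sequenced in single reads of 50 bases. The authors ran the Nextpresso pipeline on hg19, and the submitters' processing notes name FastQC, TopHat2 2.0.10, Bowtie 1.0.0, SAMtools 0.1.19, Cufflinks 2.2.1 and Cuffnorm. The gene annotation is not given in the sources used here. The authors deposited 1 table of FPKM values for 23284 genes in 10 samples, with 0 columns that could not be tied to a sample. FPKM divides by length and by library, so a level is relative to the other mRNAs of the sample, and no counts or depths are given.

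Values were analysed as log2(FPKM + 1), a scale on which changes of low genes are understated, with limma 3.58.1 in R 4.3.3. The test took the 12788 genes that averaged 0.5 FPKM or more. A single fit of 5 group means, without a block, had 5 residual degrees of freedom, to which the moderated variance (with a trend on expression) added 2.15. Adjusted p-values (Benjamini-Hochberg) were taken over all tested genes, with a threshold of 0.05. Groups came from the sample labels, which name 2 biological replicates per condition and no culture for each, so p-values measure the spread between these samples. The replicate numbers were not used as pairs.

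The 10 enzymes and the related lists were chosen with earlier results of these data known. From each list up to 2 of the largest falls and 2 of the largest rises among the genes called with 5 µM CBP30 were named, besides HPRT1, PRPS1 and PRPS2. AK6 was not matched in the table. Some genes that these rules reach are not reported here. Lengths were those of canonical transcripts of GENCODE 44 on GRCh37, matched for 11760 (92.0%) of the tested genes, and the length trend was removed per library with lowess (span 0.3). Gene starts and promoter letters came from GENCODE 44 and from RefSeq (GRCh38.p14). Plots were drawn with matplotlib 3.10.9, and tables were joined with pandas 2.3.3, under Python 3.11.15. The fit was tested on simulated data of 12788 genes. Alternatives were another pseudocount (0.1), no filter and a filter at 5 FPKM, median centring, quantile normalization, no variance trend, only the groups compared, a replicate block, length removal with and without the block, and each sample left out.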

Additional observations from a re-analysis of the deposited data

Results flagged for a closer look

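The step from 2 to 5 µM differed between the compounds for ATIC, the enzyme that closes the purine ring: the change with CBP30 minus the change with I-CBP112 was −0.38 on the log2(FPKM + 1) scale (SE 0.0793, 95% interval −0.56 to −0.19, limma adjusted p = 0.0461). ATIC was noted because a test of the difference between the compounds' steps passed the threshold, 1 of the 10 enzymes where 632 genes (4.94%) did so in all. The difference was −0.33 (adjusted p = 0.0226) without CBP30 2 µM replicate 1, −0.38 (adjusted p = 0.0732) with a replicate block and −0.17 (adjusted p = 0.107) with the length trend removed.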

How the results depend on the processing

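The 10 falls with 5 µM CBP30 were called under each alternative for all samples except quantile normalization (9 enzymes, where 24.9% of all genes were called lower). Over the other alternatives for all samples that share ran from 12.9% to 32.6%. When a sample was left out, the differences of all 10 enzymes stayed negative. The other counts moved. The fit of only the groups compared called 0 enzymes lower for 2 µM CBP30 (1.28% of all genes) and 5 for 5 µM I-CBP112 (6.69%). It called 0 for 5 against 2 µM CBP30 (0.0313%) and 0 for the compounds at 2 µM (0.0704%). With quantile normalization the enzymes called lower were 1 for 5 µM I-CBP112 (3.82% of all genes) and 4 for 5 against 2 µM CBP30 (19.8%). With the replicate block 1 was called for 5 µM I-CBP112 (2.26% of all genes). With the length trend removed, 5 were called for 5 µM (8.53%) and 1 for 2 µM I-CBP112 (2.76%). With that block as well, these were again 5 (8.29%) and 1 (2.48%). The compounds at 2 µM gave 7 with the length trend removed and the block, where 14.3% of all genes were called lower. With a sample left out, the counts lower moved for 2 µM CBP30, 5 µM I-CBP112 and 2 µM I-CBP112. They also moved for 5 against 2 µM CBP30 and for the compounds at 5 and 2 µM. The shares of all genes called moved too. Without CBP30 2 µM replicate 2, ADSL was higher with 2 µM CBP30 than in DMSO (0.16) and than with 2 µM I-CBP112 (0.25).

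Some differences changed sign, and the cause was not tested. With 2 µM CBP30 ADSL was −0.0391 with quantile normalization and GMPS 0.0089 with the length trend removed, with or without the block. For 5 against 2 µM CBP30, PPAT was 0.075 and ADSS 0.074 with quantile normalization, and ADSS 0.045 with the length trend removed. For the compounds at 2 µM GMPS was 0.076 with the length trend removed. Between the steps of the compounds PPAT was −0.0018, PFAS −0.087 and ADSS 0.079 with the length trend removed, and PPAT −0.081 and PFAS −0.024 without CBP30 2 µM replicate 1. With a sample left out, ADSL ran from −0.13 to 0.16 and IMPDH2 from −0.16 to 0.027 against DMSO (2 µM CBP30 and 2 µM I-CBP112). For 5 against 2 µM CBP30 PPAT ran from −0.11 to 0.097 and PFAS from −0.16 to 0.051. For I-CBP112 the ranges were −0.098 to 0.0100 (ATIC), −0.059 to 0.0018 (ADSS) and −0.11 to 0.081 (IMPDH2). For the compounds at 2 µM they were −0.042 to 0.25 (ADSL) and −0.22 to 0.047 (IMPDH2).

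Over all genes the fit of only the groups compared called 164 lower against 2079 for 2 µM CBP30, 856 against 419 for 5 µM and 8 against 94 for 2 µM I-CBP112, 4 against 2724 for 5 against 2 µM CBP30, and 3531 against 2284 and 9 against 1081 for the compounds at 5 and 2 µM. With the length trend removed these were 1003 for 5 µM and 324 for 2 µM I-CBP112 and 1717 for the compounds at 2 µM. Without the filter 1691 were lower for 5 against 2 µM CBP30, and with the block 44 for 2 µM I-CBP112.

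The deviations of same-numbered samples from their group means had correlations from −0.0681 to 0.0939. These values cannot show whether such samples shared a culture or a batch. The replicate block on these numbers changed 3 of 80 calls for single enzymes. With 2 samples per condition and no read counts the precision of small differences is limited, and where a sample is left out its partner is assumed to vary like the other groups.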
